A study of Homo sapiens with 6 samples.

Results

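The methionine cycle turns methionine into S-adenosylmethionine (SAM), the methyl donor of most cellular methylation reactions, and rebuilds methionine from what is left after the methyl group has been given away. Methyltransferases convert SAM into S-adenosylhomocysteine, which is hydrolysed to homocysteine. Homocysteine is either methylated back to methionine or passed through transsulfuration to cystathionine and cysteine. The genes described here are MAT2A and MAT2B (SAM synthesis), NNMT (a methyltransferase that spends SAM on nicotinamide), AHCY, AHCYL1 and AHCYL2 (the S-adenosylhomocysteine hydrolase and its relatives), MTR and MTRR (remethylation), and CBS and CTH (transsulfuration). These 10 genes were taken by name from the 57396 genes of the count table, and all 10 were among the 15312 genes with enough counts to be tested.

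PC-3 is an established, androgen-independent cell line derived from a metastasis of a human prostate carcinoma. The cells received 160 µM SAM (3 libraries) or vehicle alone (3 control libraries), with a treatment period of 5 days in both groups, and their RNA was sequenced. The question addressed here is how the transcripts of the pathway that makes and uses SAM stood after the cells had been given SAM. Nothing in the labels says whether the libraries came from separate cultures, so the p-values speak of variation among these 6 libraries, which may be of technical origin.

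Library totals were between 12020601 and 28995160 counts with SAM and between 9379258 and 21768273 in controls. A floor of 3 counts equals 0.103 to 0.320 CPM (counts scaled to library size) per library, for counting error only. The epithelial markers KRT8, KRT18, KRT19, EPCAM and CDH1 summed to 2851 to 3595 CPM with SAM and 3330 to 3474 CPM in controls, and the prostate luminal markers KLK2 and KLK3, which PC-3 cells lack, had no count in any library. Among the epithelial markers CDH1 (E-cadherin) fell, with 243, 303 and 256 CPM with SAM, against 390, 348 and 357 CPM in controls (log2 fold change -0.45, adjusted p = 0.0298 by edgeR), and the other 4 did not pass the test. The 7 markers of blood, endothelium and fibroblasts analysed here summed to 18.2 to 19.1 CPM with SAM and 18.2 to 20.3 CPM in controls, nearly all of it COL1A1, while the fibroblast marker DCN was at 0. Of these, CD68 rose at a low level, with 0.861, 1.52 and 1.25 CPM with SAM, against 0.429, 0.590 and 0.294 CPM in controls (log2 fold change 1.36, adjusted p = 0.0439 by edgeR). Both calls depended on single libraries. That of CDH1 held in 2 of the 6 analyses that left out 1 library, with an adjusted p of up to 0.141 by edgeR. That of CD68 rested on 4 to 25 counts per library and held in 0 of these 6 analyses (adjusted p between 0.0564 and 0.198). The part of CDH1 and CD68 in the results described next was not tested. SAM 3 stood apart in base composition, where log2 CPM climbed by 0.19 for every 10 points of GC percent, against 0.00 and 0.06 in the other SAM libraries and 0.03 to 0.05 in controls. Per doubling of transcript length log2 CPM climbed by 0.60, 0.69 and 0.54 with SAM, against 0.72, 0.66 and 0.71 in controls, so that SAM 1 and SAM 3 lay below every control. NNMT, CBS and CTH were also called lower with both trends removed. SAM 2 and Control 1 deviated from their groups together (Pearson's r = 0.45 across genes, the highest of the 9 pairs of a SAM and a control library).

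NNMT, CBS and CTH fell with SAM, and the other 7 genes did not pass the test. In bulk RNA a lower level in each cell cannot be told apart from fewer cells with the transcript. NNMT was at 51.5% of the control level (95% interval 43.8 to 60.5%), CBS at 45.5% (31.7 to 65.5%) and CTH at 63.2% (50.6 to 79.0%). Thus 3 of 10 genes were lower by edgeR's quasi-likelihood test at a Benjamini-Hochberg adjusted p under 0.05, where 5.24% of all genes tested were lower, 5.19% were higher and 10.4% were called in either direction. When counts were scaled by library totals alone, 608 genes in the whole table were higher and 961 lower, against 795 and 803 with TMM scaling, and the same 3 genes were called together with AHCYL1. Of the 10 genes, 0 were higher by edgeR, by DESeq2 or by limma voom, and 1, MAT2A, was higher at an unadjusted p under 0.05. The median log2 fold change of the 10 genes was -0.29, beside -0.01 over all genes tested. The SAM and control libraries did not overlap in 7 of the 10 genes, 5 lower and 2 higher, beside 36.7% of all genes tested (18.8% lower and 17.9% higher). Without both SAM 2 and Control 1, the 3 lower genes were again NNMT, CBS and CTH. The count depended on single libraries. NNMT alone was called lower without Control 1, without Control 2 or without Control 3. NNMT and CBS were called lower without SAM 1, and 5 genes without SAM 2. Calls over all genes tested shifted as well, from 803 lower in the main analysis. That number was 141 without Control 1, 114 without Control 2, 78 without Control 3 and 108 without SAM 1. Without SAM 2 it was 1572.

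**Figure D1:**
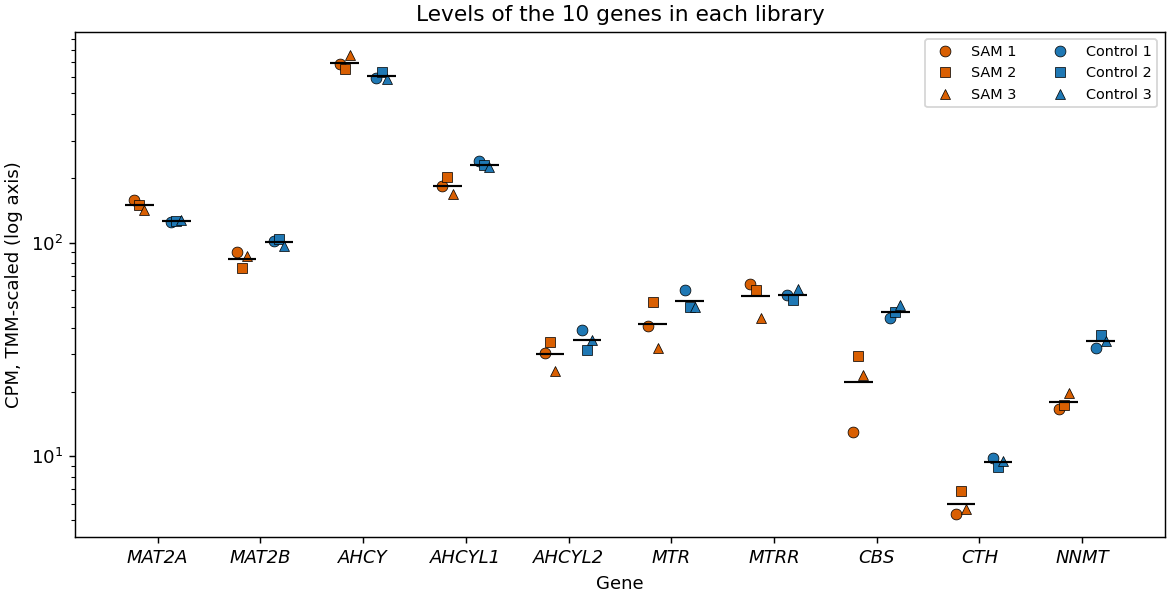
CPM with TMM-scaled library sizes (vertical axis, log scale) of the 10 genes (horizontal axis) in the 3 SAM libraries (orange, left of each pair) and the 3 control libraries (blue, right), with the group mean as a black line. NNMT, CBS and CTH show the widest gaps between groups, and the SAM libraries of CBS range from 13.0 to 29.5 CPM.

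NNMT (ENSG00000166741, chromosome 11, positions 114257787 to 114313285, GRCh38) encodes nicotinamide N-methyltransferase, which moves the methyl group of SAM onto nicotinamide and yields methylnicotinamide and S-adenosylhomocysteine. It had 16.7, 17.4 and 19.7 CPM with SAM, against 32.3, 37.0 and 34.8 CPM in controls. All SAM libraries lay well below all control libraries, and the spread within either group was small. The means were 17.9 ± 1.60 CPM with SAM and 34.7 ± 2.34 CPM in controls (SD, n = 3 each). The log2 fold change was -0.96 (SE 0.10, 95% interval -1.19 to -0.72), with an adjusted p of 0.00158 by edgeR's quasi-likelihood test. NNMT was called in each of the 19 alternative analyses, including every analysis that left out 1 library, where the adjusted p reached 0.0202 at most. It was also the one gene of the 10 that passed an adjusted p under 0.01.

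CBS (ENSG00000160200, chromosome 21, positions 43053191 to 43076943) encodes cystathionine beta-synthase, which joins homocysteine and serine and commits homocysteine to transsulfuration. It had 13.0, 29.5 and 24.0 CPM with SAM, against 44.4, 47.3 and 51.0 CPM in controls. The groups did not overlap, but the SAM libraries varied widely, with SAM 1 far below SAM 2. The highest SAM library exceeded the lowest 2.27-fold, and the coefficient of variation was 37.9% with SAM against 6.97% in controls. The means were 22.2 ± 8.39 CPM with SAM and 47.6 ± 3.32 CPM in controls (SD, n = 3 each). CBS had a log2 fold change of -1.13 (SE 0.24, 95% interval -1.66 to -0.61) and an adjusted p of 0.0193 by edgeR's quasi-likelihood test. CBS no longer passed when Control 1 (adjusted p = 0.0664), Control 2 (0.0682) or Control 3 (0.0953) was left out, and over all alternatives the adjusted p lay between 2.09e-18, with no filter on low counts, and 0.0953. The unfiltered fit gave CBS an SE of 0.119, near the 0.118 of AHCYL1 and PNP there. Its very small p-value therefore does not reflect the wide spread of CBS among the SAM libraries. The fold change itself stayed between -1.39 and -0.84 on the log2 scale when single libraries were left out, the weakest value being that without SAM 1. The count table was searched for the near-identical gene CBSL and held no gene of that name, so reads that fit both copies remain uncertain.

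CTH (ENSG00000116761, chromosome 1, positions 70411218 to 70439851) encodes cystathionine gamma-lyase, which splits cystathionine into cysteine and completes transsulfuration. It had 5.37, 6.85 and 5.68 CPM with SAM, against 9.76, 8.85 and 9.50 CPM in controls. Every SAM library was below every control library, by a smaller margin than in NNMT. The means were 5.97 ± 0.780 CPM with SAM and 9.37 ± 0.467 CPM in controls (SD, n = 3 each), resting on 81 to 156 counts per SAM library and 91 to 195 counts per control library. CTH had a log2 fold change of -0.66 (SE 0.14, 95% interval -0.98 to -0.34) and an adjusted p of 0.0227 by edgeR's quasi-likelihood test. CTH no longer passed when Control 1 (adjusted p = 0.0934), Control 2 (0.0712), Control 3 (0.113) or SAM 1 (0.0908) was left out, and over all alternatives the adjusted p lay between 0.00525 and 0.113. Without 1 library at a time the log2 fold change lay between -0.76 and -0.59.

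**Figure D2:**
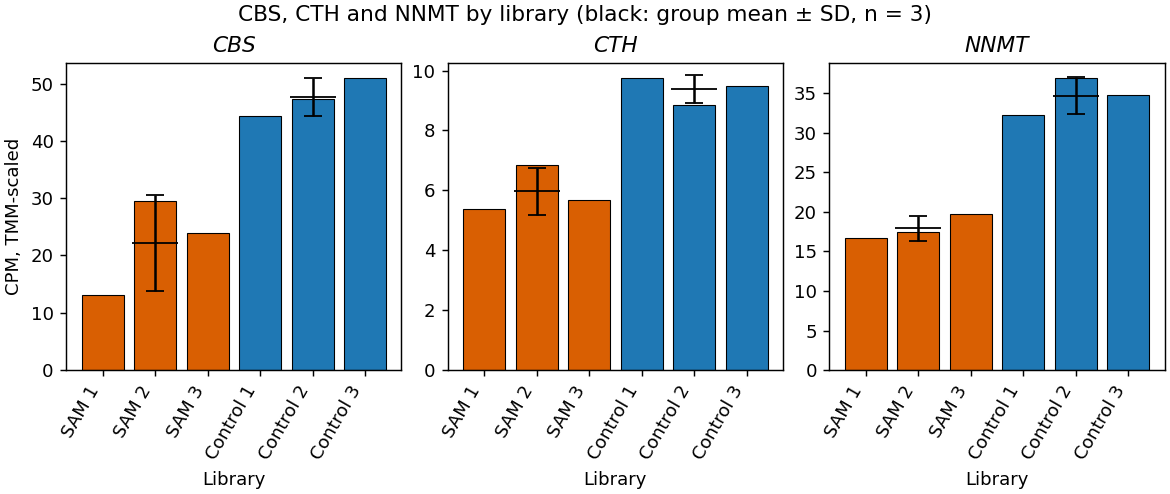
CPM with TMM-scaled library sizes (vertical axes, starting at 0) of CBS, CTH and NNMT in the 3 SAM libraries (orange) and the 3 control libraries (blue), with the mean ± SD of each group (n = 3) in black. In each gene the highest SAM bar is lower than the lowest control bar, and CBS in SAM 1 is at 13.0 CPM, against 29.5 CPM in SAM 2.

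The promoters of both transsulfuration genes are shown, since the RefSeq promoter table had entries for CBS and CTH but none for NNMT. CG dinucleotides are marked because SAM is the methyl donor for CpG methylation of DNA. Methylation of these windows was not analysed here. Each line gives the 250 bases before a RefSeq transcription start (GRCh38.p14), 5′ to 3′ on the strand of the gene, with every CG dinucleotide in capitals. The CTH window is chr1:70411018-70411267 on the plus strand, and that of CBS, the first of 3 starts in the table, is chr21:43076378-43076627 on the minus strand.
CTH: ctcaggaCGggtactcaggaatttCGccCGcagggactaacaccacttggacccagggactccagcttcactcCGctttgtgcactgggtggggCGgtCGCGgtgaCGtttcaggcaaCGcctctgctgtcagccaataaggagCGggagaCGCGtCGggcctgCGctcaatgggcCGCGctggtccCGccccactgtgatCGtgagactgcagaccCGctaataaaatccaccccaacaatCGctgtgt
CBS: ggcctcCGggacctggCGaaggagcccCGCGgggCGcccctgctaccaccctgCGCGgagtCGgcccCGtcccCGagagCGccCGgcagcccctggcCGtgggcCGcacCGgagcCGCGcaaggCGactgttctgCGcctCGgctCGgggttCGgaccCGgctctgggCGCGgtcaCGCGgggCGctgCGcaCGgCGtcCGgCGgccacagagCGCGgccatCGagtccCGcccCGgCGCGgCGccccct

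The CTH window holds 20 CG dinucleotides, more than 67.6% of the 35116 promoters of the RefSeq table, whose median is 11. The CBS window shown holds 41, more than 98.3% of them, and the other CBS starts hold 24 and 3. The promoters, from 250 bases before to 50 bases after each start, were also searched on both strands for 3 sets of letters, the core TGATGNAA of the amino acid response element bound by C/EBP and ATF factors, the E-box CACGTG and the TATA sequence TATAAA. Neither the CTH window nor any CBS window holds one of them, while 3.62%, 7.26% and 11.5% of all promoters hold TGATGNAA, CACGTG and TATAAA. Of the 10 genes, 8 matched the promoter table, with 21 windows, while NNMT and MTRR had no entry and were not searched. A match or its absence describes letters in these windows only.

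Both genes of SAM synthesis lay apart between groups in opposite directions, and neither passed the test. MAT2A (ENSG00000168906, chromosome 2, positions 85539165 to 85545280) encodes the catalytic subunit of the methionine adenosyltransferase of most tissues outside the adult liver. It had 158, 150 and 142 CPM with SAM, against 125, 126 and 128 CPM in controls. The control libraries were nearly identical, and each SAM library was above them. The means were 150 ± 8.15 CPM with SAM and 126 ± 1.46 CPM in controls (SD, n = 3 each), a log2 fold change of 0.25 (SE 0.09, 95% interval 0.05 to 0.45) with an adjusted p of 0.0958 by edgeR. Over the alternatives the adjusted p lay between 0.0287 and 0.290, and it passed the threshold in 2 of them, without SAM 3 (0.0298) and after each library's trend on transcript length and GC content was removed (0.0287). The antisense neighbour GGCX overlaps MAT2A, with a count total equal to 33.6% of that of MAT2A. The sources used here do not say whether the counting took strand into account, so how reads in the shared stretch were assigned is not known. The totals are of the whole genes, not of that stretch. GGCX itself had a log2 fold change of -0.06 (SE 0.09), with an adjusted p of 0.685 by edgeR.

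MAT2A is known for a feedback on its own RNA. The methyltransferase METTL16 binds hairpins in its 3′ untranslated region that carry the letters TACAGAGAA, methylates them when SAM is plentiful, and favours splicing of a retained last intron when SAM is scarce. A search of the main MAT2A transcript found 5 such sites in the 3′ untranslated region, 40, 827, 1012, 1127 and 1350 bases after the stop codon. They are printed with 10 bases on each side, as 29 bases of GRCh38 on the plus strand. The letters in capitals are those searched for and are therefore the same in each site. The windows are chr2:85543802-85543830, chr2:85544589-85544617, chr2:85544774-85544802, chr2:85544889-85544917 and chr2:85545112-85545140.
MAT2A site 1: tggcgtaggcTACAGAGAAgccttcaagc
MAT2A site 2: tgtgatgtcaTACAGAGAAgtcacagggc
MAT2A site 3: ctggtgtagcTACAGAGAAaccagcttcc
MAT2A site 4: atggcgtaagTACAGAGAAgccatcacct
MAT2A site 5: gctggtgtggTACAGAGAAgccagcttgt

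Counts summed over a gene do not separate spliced MAT2A from the form with a retained intron, so splicing was not analysed here. METTL16 had 32.9, 41.6 and 33.9 CPM with SAM, against 44.1, 38.0 and 39.6 CPM in controls. The groups overlapped, and the log2 fold change of METTL16 was -0.17 (adjusted p = 0.333 by edgeR).

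MAT2B (ENSG00000038274, chromosome 5, positions 163503114 to 163519336) encodes the regulatory subunit that pairs with the MAT2A protein. It had 90.1, 76.5 and 86.3 CPM with SAM, against 102, 104 and 96.3 CPM in controls. All SAM libraries were below all control libraries. MAT2B had a log2 fold change of -0.26 (SE 0.10, 95% interval -0.48 to -0.04) and an adjusted p of 0.116 by edgeR, between 0.0810 and 0.366 over the alternatives.

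AHCY and AHCYL1 also lay apart between groups without passing the test. AHCY (ENSG00000101444, chromosome 20, positions 34280268 to 34311802) encodes the hydrolase that removes S-adenosylhomocysteine, an inhibitor of methyltransferases. It had 685, 648 and 756 CPM with SAM, against 590, 632 and 587 CPM in controls. Its groups were separated by the narrow gap between SAM 2 and Control 2. The log2 fold change was 0.21 (SE 0.09, 95% interval -0.00 to 0.42), with an adjusted p of 0.167 by edgeR. The 6 AHCY pseudogenes in the table held 5 counts over all libraries.

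AHCYL1 (ENSG00000168710, chromosome 1, positions 109984686 to 110023741) encodes IRBIT, a hydrolase-like protein known for binding inositol trisphosphate receptors rather than for hydrolysis. It had 184, 202 and 169 CPM with SAM, against 240, 230 and 226 CPM in controls. Every SAM library was below every control library. The log2 fold change was -0.33 (SE 0.10, 95% interval -0.54 to -0.11) with an adjusted p of 0.0577 by edgeR, just outside the threshold. Over the alternatives the adjusted p of AHCYL1 ran between 0.0173 and 0.209, and 6 of 19 placed it under the threshold, among them DESeq2 (0.0268) and limma voom (0.0486).

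AHCYL2 (ENSG00000158467, chromosome 7, positions 129225023 to 129430211), the closest relative of AHCYL1, had 30.5, 34.4 and 25.2 CPM with SAM, against 38.8, 31.6 and 35.0 CPM in controls. The groups overlapped, since SAM 2 was above Control 2. AHCYL2 had a log2 fold change of -0.22 (SE 0.13, 95% interval -0.51 to 0.06), with an adjusted p of 0.262 by edgeR.

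Neither MTR nor MTRR, the pair that remethylates homocysteine, passed the test. MTR (ENSG00000116984, chromosome 1, positions 236795281 to 236903981) encodes methionine synthase, which carries a methyl group from methylfolate to homocysteine on a cobalamin cofactor. It had 40.7, 52.5 and 32.0 CPM with SAM, against 60.1, 49.99 and 49.99 CPM in controls. SAM 2 lay within the range of the controls, while SAM 1 and SAM 3 were below it. The log2 fold change was -0.35 (SE 0.16, 95% interval -0.71 to 0.01), with an adjusted p of 0.170 by edgeR, and between 0.0253 and 0.444 over the alternatives. Without SAM 2 it was -0.54 and passed the threshold (adjusted p = 0.0253). It also passed with no filter on low counts (0.0454), where the SE of MTR was 0.119.

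MTRR (ENSG00000124275, chromosome 5, positions 7851186 to 7906025) encodes the reductase that restores the cobalamin of methionine synthase. It had 64.4, 60.3 and 44.4 CPM with SAM, against 56.8, 53.9 and 60.7 CPM in controls. The libraries of both groups were intermixed, and SAM 3 was the lowest of all. MTRR had a log2 fold change of -0.02 (SE 0.13, 95% interval -0.32 to 0.28), with an adjusted p of 0.947 by edgeR. Its sign turned without SAM 3 (0.13), without Control 3 (0.03) and with the trend on length and GC content removed (0.02). The antisense neighbour FASTKD3 overlaps MTRR, and its counts equalled 36.0% of those of MTRR.

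**Figure D3:**
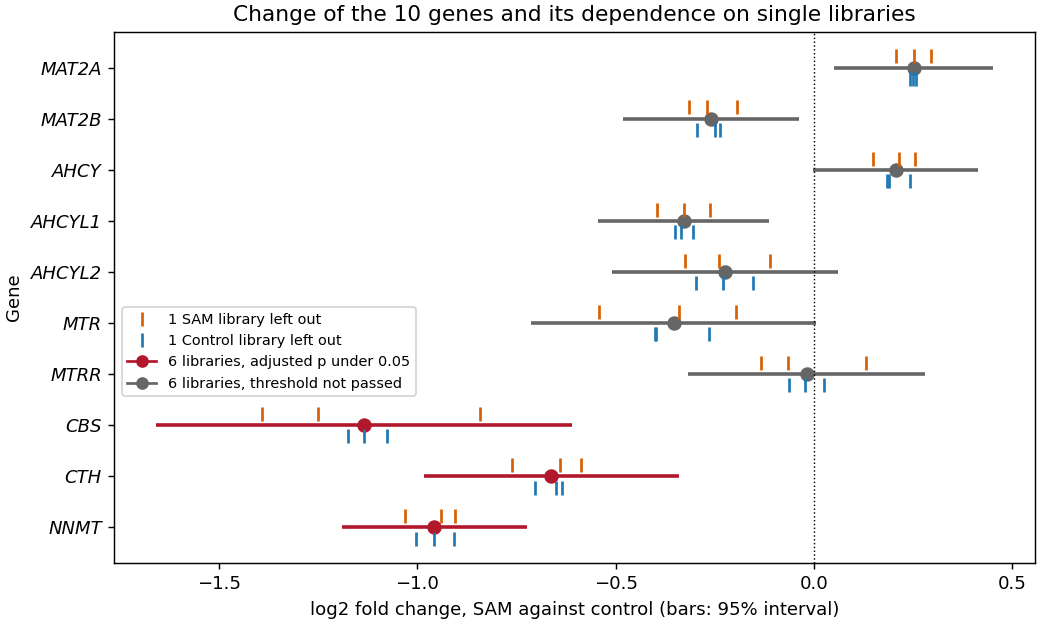
Log2 fold change of SAM against control (horizontal axis) for the 10 genes (vertical axis), with points and bars for the estimate from 6 libraries and its 95% interval, in red where the adjusted p was under 0.05. Ticks above and below each bar show the estimate without 1 SAM library (orange) or without 1 control library (blue). The ticks of CBS spread from -1.39 to -0.84 and those of NNMT from -1.03 to -0.91.

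Per length of merged exons, the control levels spanned the range from AHCY at 155 ± 6.52 RPKM (CPM per kilobase) to MTR at 2.77 ± 0.302 RPKM (SD, n = 3). The control order was AHCY, AHCYL1, MAT2A, NNMT, MAT2B, MTRR, CBS, AHCYL2, CTH and MTR, and the ranges of neighbours did not overlap. With SAM the order was AHCY, AHCYL1, MAT2A, MAT2B, MTRR, NNMT, AHCYL2, CBS, CTH and MTR. AHCYL1 and MAT2A, which stood at 36.7 ± 3.33 and 33.5 ± 1.82 RPKM with SAM, overlapped in range there, and stood at 46.1 ± 1.46 and 28.1 ± 0.324 RPKM in controls. NNMT was at 6.91 ± 0.616 RPKM with SAM, below MAT2B and overlapping MTRR, and at 13.4 ± 0.901 RPKM in controls, above both. From AHCYL2 down to MTR each gene overlapped its neighbour with SAM. Merged exons cover all annotated isoforms, which lowers the level of a gene with many of them, such as MTR.

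The 10 genes differed in which SAM library was extreme. SAM 3 was the lowest SAM library in 5 genes, SAM 1 in 3 and SAM 2 in 2, and SAM 2 was the highest in 5. NNMT, CBS and CTH had SAM 1 as their lowest library. Across the 6 libraries, the log2 CPM of CBS and CTH had a Pearson's r of 0.94, CTH and NNMT 0.91, CBS and NNMT 0.88, and MAT2A and NNMT -0.97. These values are descriptions, since all points share libraries and the difference between groups.

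Among tested genes averaging 4 or more in log2 CPM, those whose log2 CPM over the 6 libraries was most like that of NNMT were PTPRU (r = 0.999), TINAGL1 (0.998) and IGFBP5 (0.997). IGFBP5, which encodes an insulin-like growth factor binding protein, had 5.48, 6.60 and 8.25 CPM with SAM, against 25.5, 28.6 and 26.4 CPM in controls. Those most like CBS were LRP10 (0.999), LRRC8A (0.998) and BCAS3 (0.997). The log2 fold changes of these genes were -0.23, -0.30 and -0.74. LRP10 (adjusted p = 0.128 by edgeR) and LRRC8A (0.09) did not pass the test. Among those most like CTH were ANO1 (0.998) and ATP9A (0.997). ATP9A, a phospholipid flippase, had 102, 156 and 109 CPM with SAM, against 288, 252 and 258 CPM in controls. Each r in this paragraph was picked as among the highest of many genes, over 6 libraries that share the difference between groups. High values follow partly from that choice, so they are descriptions only.

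Around the core cycle, 45 genes in 6 related lists were examined, of which 38 were tested, 6 rose, 1 fell and 31 did not pass, where 5.19% of all genes tested were higher and 5.24% lower. Their median log2 fold change was -0.03. Each of the 7 calls was lost without SAM 1 and without any 1 of the controls, and the largest adjusted p of each of these genes over the libraries left out was between 0.118 and 0.200. Without both SAM 2 and Control 1, MMACHC (adjusted p = 0.0741), GCLM (0.101) and CPSF6 (0.0568) did not pass either.

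Genes of SAM synthesis, SAM use and homocysteine remethylation known mainly from the liver were too low to be tested. The liver-type synthetase MAT1A and the betaine-dependent methyltransferase BHMT2 had no count, BHMT had 1 count in all, and the glycine methyltransferase GNMT had 3 or 4 counts per library.

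In the cobalamin supply list, 2 of 6 genes rose and 4 did not pass, where 5.19% of all genes tested were higher. CD320, the cellular receptor for cobalamin bound to transcobalamin, had 137, 122 and 178 CPM with SAM, against 97.9, 103 and 101 CPM in controls (log2 fold change 0.54, SE 0.13, adjusted p = 0.0355 by edgeR). MMACHC, which processes cobalamin inside the cell, had 22.7, 20.3 and 20.8 CPM with SAM, against 16.6, 15.0 and 16.3 CPM in controls (log2 fold change 0.42, SE 0.10, adjusted p = 0.0338). Both genes were higher in every SAM library than in any control library. LMBRD1 (log2 fold change -0.35, adjusted p = 0.0628 by edgeR) and TCN2 (-0.40, 0.125) were lower in every SAM library and did not pass. The groups thus did not overlap in 2 higher and 2 lower genes, beside 17.9% and 18.8% of all genes tested. The list as a whole had a median log2 fold change of -0.06.

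Of 10 tested genes of cysteine use and sulfur oxidation, GCLM rose and 9 did not pass, a share near the 10.4% of all genes tested that were called in either direction. GCLM, the modifier subunit of the enzyme that starts glutathione synthesis from cysteine, had 64.1, 55.0 and 42.8 CPM with SAM, against 39.5, 38.5 and 36.2 CPM in controls. The groups did not overlap, and the log2 fold change was 0.51 (SE 0.14, adjusted p = 0.0431 by edgeR). The call did not hold by limma voom or by limma on the normalised values. The catalytic subunit of the same enzyme, GCLC, had 52.6, 55.1 and 48.3 CPM with SAM, against 69.1, 61.9 and 61.9 CPM in controls. GCLC thus lay in the opposite direction, with a log2 fold change of -0.30 (SE 0.09), and did not pass (adjusted p = 0.0659 by edgeR).

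Methionine salvage recovers methionine from the by-product of polyamine synthesis, which also draws on SAM. All 5 genes of this list (MTAP, MRI1, APIP, ENOPH1 and ADI1) had log2 fold changes above 0, as did 7517 of the 15312 genes tested, with a median of 0.32, and 0 passed the test by edgeR. At an unadjusted p under 0.05, MRI1, ENOPH1 and ADI1 were higher, and 2 of the 5 genes passed by DESeq2, 1 by limma voom and 0 by limma on the normalised values. ADI1, a dioxygenase near the end of the pathway, had 89.9, 70.4 and 84.0 CPM with SAM, against 59.1, 66.3 and 60.4 CPM in controls, and an adjusted p of 0.0511.

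Of 6 genes for SAM sensing, MAT2A splicing and mitochondrial SAM import, CPSF6 rose and 5 did not pass, beside 5.19% higher and 10.4% called in either direction among all genes tested. CPSF6, a subunit of the cleavage factor that partners with NUDT21 in RNA processing, had 88.9, 88.9 and 85.3 CPM with SAM, against 67.6, 64.8 and 64.0 CPM in controls. The groups were tight and well apart, with a log2 fold change of 0.42 (SE 0.09, adjusted p = 0.0191 by edgeR).

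Of 11 tested genes of nicotinamide and NAD metabolism, in which NNMT takes nicotinamide away, 2 rose, 1 fell and 8 did not pass, beside 5.19% higher and 5.24% lower among all genes tested. PNP, a nucleoside phosphorylase that also releases nicotinamide from its riboside, had 139, 117 and 138 CPM with SAM, against 90.1, 98.1 and 89.6 CPM in controls (log2 fold change 0.50, SE 0.10, adjusted p = 0.0191 by edgeR). NAPRT, which starts NAD synthesis from nicotinic acid, had 5.62, 3.97 and 5.15 CPM with SAM, against 3.43, 3.13 and 3.04 CPM in controls (log2 fold change 0.65, SE 0.18, adjusted p = 0.0472). NAPRT lost its call in 11 of 19 alternatives, among them DESeq2 (0.0685), library totals alone (0.0562), limma on the normalised values (0.0589) and the removed length and GC trend (0.0686), within a range of 0.0182 to 0.200. NMNAT2, an adenylyltransferase of the last steps of NAD synthesis, fell, with 27.9, 40.0 and 33.8 CPM with SAM, against 52.9, 47.5 and 49.3 CPM in controls (log2 fold change -0.56, SE 0.13, adjusted p = 0.0251). NAMPT, which recycles nicotinamide and so competes with NNMT for it, had 212, 203 and 163 CPM with SAM, against 221, 214 and 210 CPM in controls. Its log2 fold change was -0.16 (adjusted p = 0.356 by edgeR).

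**Figure D4:**
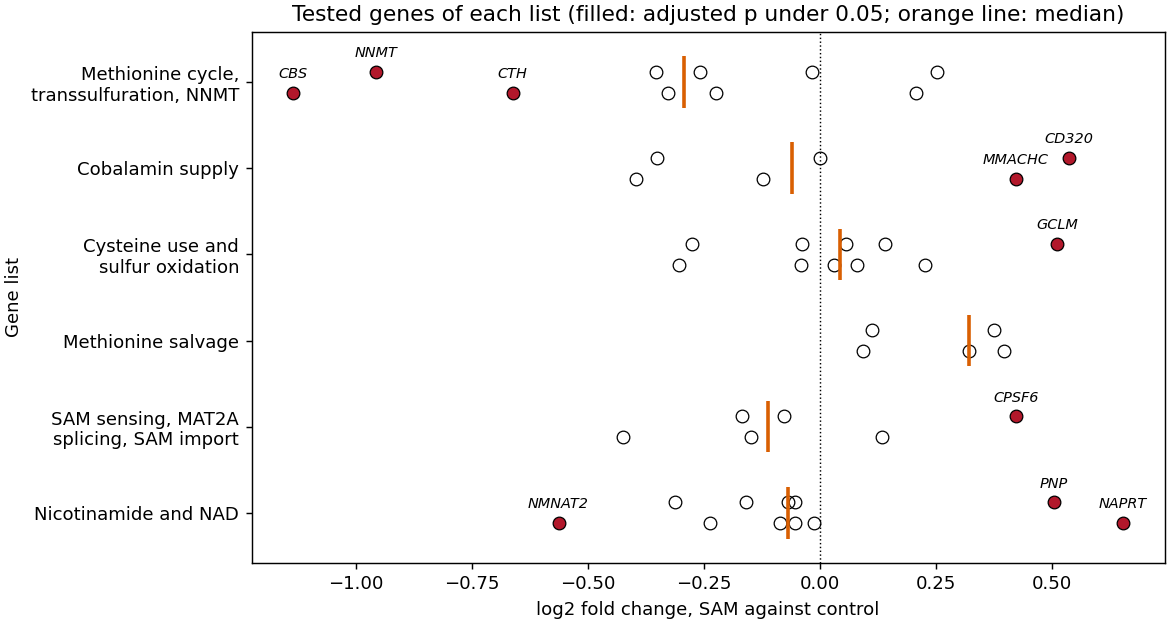
Log2 fold change of SAM against control (horizontal axis) for each tested gene of the 10 genes described and of the 5 related lists with tested genes (vertical axis), filled in red and named where the adjusted p was under 0.05, with the list median as an orange line. The 10 genes at the top have a median of -0.29, and all 5 salvage genes lie above 0 with a median of 0.32.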

How the data were processed

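Per the labels, RNA came from a Peq-Gold kit, libraries from a TruSeq RNA kit and reads from a HiSeq2000. The paper gives a different SAM dose, kit, sequencer and pipeline. The labels were followed, and decitabine arms were not analysed here. Tools listed in the submitters' processing notes, with no role given, are HTSeq 0.6.1, STAR 2.4, DESeq2 1.8, SAMtools 0.1.19, FastQC 0.10.0 and CASAVA 1.8.2. The notes list hg19 and mm10 as builds. The authors deposited raw counts per Ensembl gene and a normalised signal in which every count of a library is scaled by the same size factor (0.562 to 1.75). Of 51488 identifiers shared with GENCODE 44, 99.9% overlap that gene on GRCh38, so coordinates are given as GRCh38.

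Counts were tested in edgeR 4.0.16 (R 4.3.3) with glmQLFit and glmQLFTest after TMM scaling. Low genes were removed by filterByExpr, leaving 15312 that held 99.9% of all counts. Tests were two-sided, the treatment was the only term, and p-values were adjusted over all genes tested (threshold 0.05). limma voom, which the study names, was an alternative because raw counts were deposited. The other alternatives were RLE, upper-quartile or no scaling factors, other filters, robust dispersion, DESeq2 1.42.0, limma 3.58.1 on log2 of the normalised signal plus 1, a replicate block, libraries left out, a trend on length and GC content removed, and an adjusted p under 0.01. No pair of replicate libraries agreed within sampling noise (chi-square per degree of freedom 4.57 to 55.2).

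The 10 genes and the related lists were chosen with earlier results of these data known. All 10 are described. From each related list, at most 4 called genes with the smallest adjusted p are named, and for each called gene of the 10, the 3 tested genes most like it across libraries. Some genes of these lists and rules are not reported here. METTL16, NAMPT, GCLC, LMBRD1, TCN2, the salvage genes and untested genes were named after their values were seen. Promoters are from RefSeq (GRCh38.p14), exon lengths from GENCODE 44. Figures were drawn with matplotlib 3.10.9.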

Additional observations from a re-analysis of the deposited data

How the results depend on the processing

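Over 19 alternatives for each of the 10 genes, 168 of 190 results kept their direction and their side of the threshold, 9 lost a call, 10 gained one and 3 reversed. NNMT, MAT2B, AHCY and AHCYL2 kept theirs throughout. The 9 lost calls were those of CBS and CTH, with single libraries left out and at an adjusted p under 0.01. The reversals were all of MTRR, at 0.022 after removal of the trend on length and GC content, 0.027 without Control 3 and 0.133 without SAM 3, within a range of -0.132 to 0.133 over the libraries left out. The number of the 10 genes called lower was 3, with 1 at an adjusted p under 0.01 and 1 to 5 when single libraries were left out. The number called higher by edgeR was 0 in the main analysis, 1 after that trend was removed, and 0 to 1 when single libraries were left out.

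Among all genes, 1598 were called, against 253 at an adjusted p under 0.01, 2881 after that trend was removed, 2743 with no filter on low counts, 954 without SAM 2 and Control 1 together, and 139 to 3233 with single libraries left out. The causes of these shifts were not tested. Of the related genes, 6 were called higher, against 0 at an adjusted p under 0.01, 3 without SAM 2 and Control 1 together, and 0 to 8 with single libraries left out. Of the same genes, 1 was called lower, against 0 at an adjusted p under 0.01, 3 after that trend was removed, and 0 to 4 with single libraries left out.

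Same-numbered libraries deviated from their groups with correlations of -0.17, -0.40 and 0.13, and not every library correlated best with its own number. Deviations from the mean of a group constrain one another, so these values cannot decide whether the libraries were paired. With the replicate block, 1028 genes were called in all, CBS, CTH and NNMT remained lower, and 3 related genes were higher.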
